A study of Mus musculus with 18 samples.

Results

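The genes described here are 10 members of the piRNA pathway, read from the messenger RNA tables of 6 mouse MII oocyte libraries. They were taken from a list of PIWI proteins, tudor proteins and germ granule factors by matching each symbol to its Ensembl gene ID. All 10 symbols matched 1 ID each, among 55471 gene IDs in the tables. MII oocytes are ovulated eggs that wait in the second meiotic metaphase. The groups were 3 libraries labelled KO, with the genotype Isca2 -/-, and 3 wild-type (WT) libraries. Isca2 encodes a mitochondrial factor of iron-sulfur cluster assembly, and the series is titled for its interaction with the TET enzymes around implantation. The labels give neither the age of the females, nor the number of oocytes or animals behind a library, nor the part of Isca2 that was altered. Nothing says that replicates came from separate animals, and the spread that the p-values measure may be technical. The sperm and blastocyst samples of the series were not used here.

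PIWI-interacting RNAs (piRNAs) are small RNAs of the germ line that guide PIWI proteins to transposon transcripts. Their precursors are cut and trimmed on the outer membrane of mitochondria, and the resulting piRNA-PIWI complexes gather with tudor proteins and helicases in germ granules. In male mice the loss of most of these genes derepresses transposons and arrests spermatogenesis. Female mice lacking them are mostly fertile, and mouse oocytes also silence transposons with small interfering RNAs made by an oocyte form of Dicer. Mice have no Piwil3, a PIWI gene that golden hamster oocytes require.

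The libraries held 23014000, 17792157 and 30240350 expected counts in the libraries labelled KO and 22617789, 21394704 and 26849790 in WT. Isca2 itself was not lower in the libraries labelled KO, where it had 53, 56 and 120 expected counts, against 14, 11 and 152 in WT (log2 fold change 0.59, SE 0.89, adjusted p = 0.907, edgeR's quasi-likelihood test). Leaving out WT replicate 3 gave 2.48 (SE 0.55, adjusted p = 0.0969), which is higher in the libraries labelled KO. Counts over the whole gene need not show a small deletion. The cause of these Isca2 values was not tested, nor was whether the labels match the genotypes. Each direction given here compares libraries by their labels. All 10 oocyte markers, such as Dppa3 and Oosp1, were at 1 TPM (a level per transcript length, scaled to a fixed library total) or more in each of the 6 libraries. WT replicate 3 stood apart. Its 10 macrophage and leukocyte markers, led by Il1b and Lyz2, summed to 1044 TPM, against 9.63 to 12.9 TPM in the libraries labelled KO and 11.1 to 11.6 TPM in the other WT libraries. Across 13680 genes its Pearson correlation with the others on log2(CPM + 1) was 0.917 to 0.931, while the other pairs had 0.969 to 0.984. CPM here is the count scaled to the library total and a TMM factor, without regard to length. Granulosa and cumulus markers, 13 in all and led by Cyp19a1 and Inha, summed to 52.2, 93.0 and 119 TPM in the libraries labelled KO, against 57.0, 45.9 and 51.3 TPM in WT. Cyp19a1 did not follow these sums, with 28.4 to 35.7 TPM in the libraries labelled KO and 33.3 to 39.0 TPM in WT. Markers with higher values in the libraries labelled KO included Fst (5.63 to 21.0 TPM, against 0 to 1.49 in WT) and Hsd17b1 (2.47 to 21.5 TPM, against 0 to 1.31 in WT). The groups overlapped for others, such as Nr5a2 (4.96 to 8.26 TPM, against 5.76 to 8.28 in WT) and Inha (0.22 to 34.7 TPM, against 0.15 to 6.05 in WT). Ptx3 was highest in WT replicate 3, at 2.75 TPM, against 0 to 0.04 TPM in the libraries labelled KO. Of 8 spermatid and sperm markers, Tnp1 and Akap4 were listed at 0 in the 6 libraries, and the list summed to 3.39 to 6.43 TPM in the libraries labelled KO and 4.47 to 7.63 TPM in WT, with Prm2 and Odf1 reaching the highest values in a library. Of 6 spermatocyte markers Spo11 and Pgk2 were listed at 0 in every library, and the sums were 166 to 240 TPM in the libraries labelled KO and 177 to 211 TPM in WT, mostly the synaptonemal complex genes Sycp3 and Sycp1. Of 5 red blood cell markers, led by Hba-a2 and Hbb-bs, none reached 1 TPM in a library, with sums of 0 to 2.15 TPM in the libraries labelled KO and 0.62 to 2.92 TPM in WT.

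Asz1 was by far the most abundant of the 10 transcripts, and Piwil2 and Piwil4, which encode PIWI proteins, were among the scarcest. Asz1, whose protein GASZ is a scaffold on the outer mitochondrial membrane, averaged 515 TPM over the 6 libraries. That is 19.8 times the 26.0 TPM of Ddx4, the mouse Vasa helicase and the next in order. Tdrd1 followed at 20.1 TPM, Mael at 7.84 TPM, Piwil1 at 6.82 TPM and Mov10l1 at 2.71 TPM. On GRCm38.p6, RefSeq places Asz1 (ENSMUSG00000010796) on chromosome 6, 18050964 to 18109061. It places Ddx4 (ENSMUSG00000021758) on chromosome 13, 112598333 to 112652633, and Tdrd1 (ENSMUSG00000025081) on chromosome 19, 56826171 to 56870012. The other members lie on chromosomes 1 (Mael), 5 (Piwil1), 9 (Piwil4), 11 (Pld6), 12 (Tdrd9), 14 (Piwil2) and 15 (Mov10l1). The 6 genes from Asz1 to Mov10l1 were at 1 TPM or more in each library. Piwil2 averaged 0.83 TPM, Tdrd9 0.80 TPM, Pld6 0.48 TPM and Piwil4 0.08 TPM. Of 25320 genes with a TPM above 0, 298 had a higher mean than Asz1, 3754 a higher mean than Ddx4 and 12737 a higher mean than Piwil2. Asz1 alone made up 87.7%, 90.1% and 92.1% of the summed TPM of the 10 genes in the libraries labelled KO, against 87.9%, 90.6% and 83.3% in WT.

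Of the 9 neighbouring pairs in this order of levels, 5 kept their order in 6 of 6 libraries. They were Asz1 over Ddx4, Tdrd1 over Mael, Piwil1 over Mov10l1, Mov10l1 over Piwil2, and Pld6 over Piwil4. Each of them had p = 0.03125 in an exact two-sided sign-flip permutation test on log2(TPM + 1), the smallest p that 6 libraries allow. Adjusted over the 9 pairs the value was 0.0563, so no pair passed 0.05. A pair could pass only if more pairs than these 5 reached the smallest p, whatever the size of its difference. The order was also taken from these same libraries, so no conclusion is drawn from the test. Asz1 lay 4.30 ± 0.49 (SD, n = 6) above Ddx4 on that log2 scale. Ddx4 and Tdrd1 differed by 0.32 ± 0.41, Mael and Piwil1 by -0.005 ± 0.90, Piwil2 and Tdrd9 by 0.03 ± 0.31, and Tdrd9 and Pld6 by 0.27 ± 0.43 (SD, n = 6 each), so each of these differences was smaller than its own SD.

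**Figure D1:**
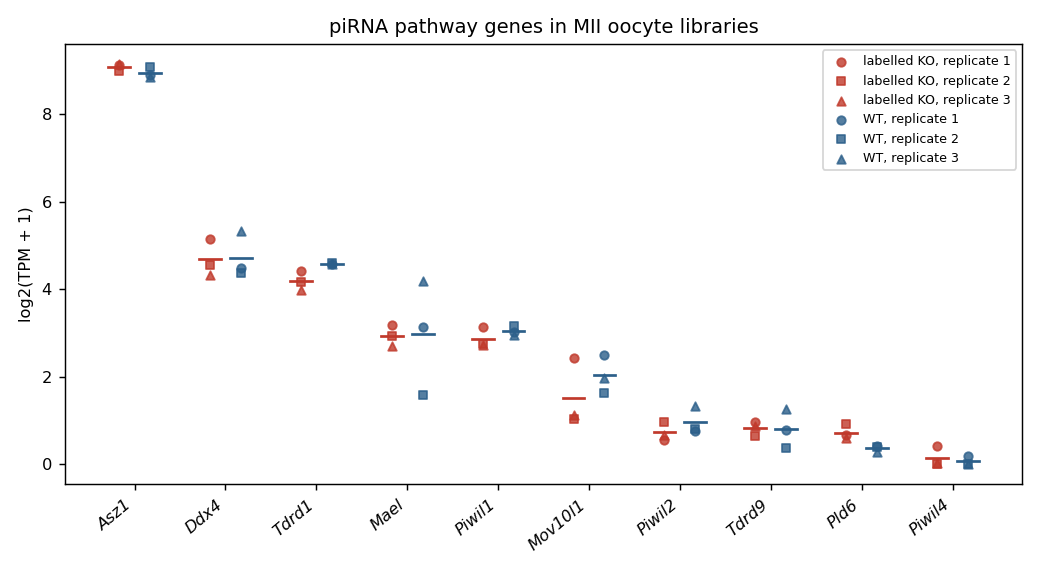
Level of each of the 10 genes, as log2(TPM + 1) on the vertical axis, with a point per library and a bar at the mean of the 3 libraries labelled KO (red, left) and of the 3 WT libraries (blue, right). Asz1 sits far above the rest, and Piwil2, Tdrd9, Pld6 and Piwil4 lie near the bottom, where single reads move the value.

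Most of the upstream sequences of these genes hold an element that the choice of genes did not use, though the motifs searched were chosen after the genes. Promoter sequence was available for 9 of the 10 genes, with 13 start sites, from RefSeq on GRCm38.p6. The 250 bases before each start site were searched on both strands for CACGTG, the E-box of MAX dimers. In somatic cells this element recruits a repressor of germ-cell genes that contains MGA, MAX and E2F6. CACGTG was found before 8 of the 13 start sites, against 6.0% of 32851 mouse promoters. It was found in 8.9% of the 16542 promoters that hold at least the median of 6 CpG dinucleotides. Neighbouring start sites of Tdrd1 share the same match. By gene it was found in 7 of the 9, against 1854 of 27025 genes. Asz1 and Piwil4 had none. The windows below hold the match nearest to the start site in each of the 7 genes, with CACGTG in capitals, 5′ to 3′ on the gene's strand.
Piwil1 (chr5:128736082-128736107, + strand): cagggcccagCACGTGtccacctcgc
Tdrd1 (chr19:56826188-56826208, + strand): gggctgcgcgCACGTGggagt
Tdrd9 (chr12:111971454-111971479, + strand): acgaggctccCACGTGcatgcagggc
Mael (chr1:166238952-166238977, - strand): ccaggcctacCACGTGacaatccccg
Mov10l1 (chr15:88982744-88982763, + strand): ccttCACGTGctaaccgcca
Ddx4 (chr13:112652324-112652349, - strand): cgtccgcccgCACGTGcagccgttta
Pld6 (chr11:59787675-59787700, - strand): ggcgggctggCACGTGttgggcgcgc
The match ends 5 bases before a start site of Tdrd1, 23 before that of Ddx4 and 27 before that of Pld6, but 217 before that of Mael and 240 before that of Mov10l1. RefSeq lists several transcripts for some of these genes, and the windows of Piwil1, Tdrd1 and Ddx4 lie inside the span of the gene, since another listed transcript starts further upstream. The upstream sequence of Asz1, the gene with the highest level, is shown in full because it holds none of the motifs searched.
Asz1 (chr6:18109062-18109311, - strand): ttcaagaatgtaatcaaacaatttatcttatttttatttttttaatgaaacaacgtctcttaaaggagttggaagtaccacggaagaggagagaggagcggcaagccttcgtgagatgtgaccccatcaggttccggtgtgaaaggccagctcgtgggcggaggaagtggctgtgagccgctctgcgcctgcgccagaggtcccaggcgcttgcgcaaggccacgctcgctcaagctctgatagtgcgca
It has 15 CpG dinucleotides in 250 bases, more than 72.7% of mouse promoters. The E2F site TTCCCGC was found before 1 of the 13 start sites, in Ddx4, against 3.8% of promoters. The oocyte factor NOBOX binds TAATTG and TAATTA. Neither was found in a member, against 7.2% and 4.8% of promoters, and the first 5 letters of these motifs are shared. CAACNG, the core of a MYB site, was found before 4 of the 13 start sites, in Piwil1, Piwil4 and Pld6, against 29.3% of promoters. Among the other pathway genes listed below, 13 had a promoter sequence, with 18 start sites. CACGTG was found before 4 of these start sites (22.2%), in Stk31 and Fkbp6. A match in these letters is not evidence of binding, and levels were not tested against it.

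No member passed the test between the groups. The expected counts were tested in edgeR across 13680 genes, of which 0.0146% (2 genes, both lower in the libraries labelled KO) were called at an adjusted p under 0.05. Of the 10 members 9 passed the count filter and 0 were called by edgeR, DESeq2 or limma-voom, where DESeq2 called 0.752% of all genes. Without WT replicate 3, edgeR called 0.651% of all genes and again 0 members. At an unadjusted edgeR p under 0.05, 1 member was lower and 0 were higher, against 3.30% of all genes on the lower side and 6.19% in either direction. The values are scaled to each library's total, so they show neither the number of oocytes nor the amount of RNA per oocyte. The median log2 fold change of the 9 was 0.03, beside -0.04 for all genes tested, with 5 members positive and 4 negative. Without WT replicate 3 the median was 0.35, beside 0.01 for all genes tested, with 7 members positive and 2 negative. Over the 6 libraries the groups did not overlap in CPM for 1 member on the lower side (Tdrd1) and 1 on the higher side (Pld6). The shares of all genes tested were 5.96% and 6.48%. Asz1 had the smallest error after Tdrd1, and the SE of the other members was 0.24 to 0.80 on the log2 scale.

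**Figure D2:**
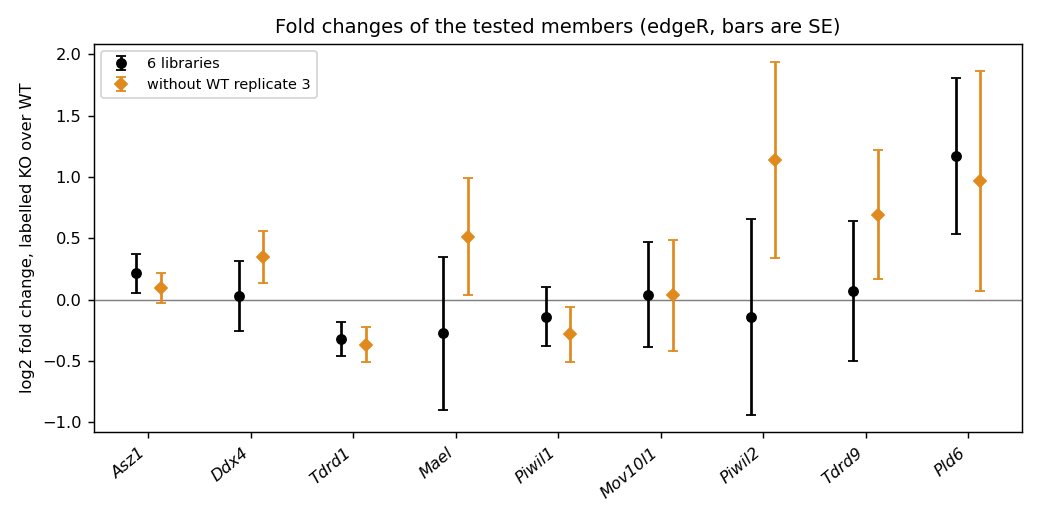
Log2 fold change of the libraries labelled KO over WT for the 9 tested members, with bars of 1 SE, for 6 libraries (black circles) and without WT replicate 3 (orange diamonds). Tdrd1 and Piwil1 lie below 0 and Asz1 and Pld6 above 0 in both fits, while Mael and Piwil2 change sign, and none was called.

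Of the PIWI genes only Piwil1 was at 1 TPM or more in every library. Piwil1 encodes MIWI, which carries piRNAs in spermatocytes and spermatids. It had 7.79, 5.68 and 5.62 TPM in the libraries labelled KO, against 7.15, 7.97 and 6.72 TPM in WT. The groups overlapped, and the log2 fold change was -0.14 (SE 0.24, edgeR adjusted p = 0.924). Piwil2 encodes MILI, the PIWI protein that binds piRNAs in growing mouse oocytes. It had 33, 17 and 23 expected counts in the libraries labelled KO, against 12, 9 and 74 in WT. The 3 libraries labelled KO lay between WT replicate 3 and the other WT libraries. Its log2 fold change was -0.14 (SE 0.80, edgeR adjusted p = 0.985), while leaving out WT replicate 3 gave 1.14 (SE 0.80, adjusted p = 0.674). Piwil4 encodes MIWI2, the nuclear PIWI protein of fetal male germ cells. It had 11, 0 and 1 expected counts in the libraries labelled KO, against 5, 0 and 0 in WT, and it did not pass the count filter. In the 3 libraries at 0, the 3 counts that a 0 still allows correspond to 0.168 CPM in the library labelled KO replicate 2, and to 0.146 and 0.103 CPM in WT replicates 2 and 3. These limits cover counting error only.

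Of the tudor genes among the members, Tdrd1 had a lower level in the libraries labelled KO, although the difference did not pass adjustment. TDRD1 binds methylated arginines of MILI in the cement between mitochondria. Tdrd1 had 20.4, 16.9 and 14.8 TPM in the libraries labelled KO, against 22.8, 23.1 and 22.6 TPM in WT. Every library labelled KO lay below every WT library, as in CPM for 5.96% of all genes tested. The nearest values in CPM were 76.1 in the library labelled KO replicate 1 and 77.3 in WT replicate 3. In TMM-scaled CPM it averaged 66.2 ± 8.69 in the libraries labelled KO and 82.6 ± 5.58 in WT (SD, n = 3 each). The log2 fold change was -0.32 (SE 0.14), with an unadjusted p of 0.049 and an adjusted p of 0.766 in edgeR. In DESeq2 on the same libraries the log2 fold change was -0.31 (SE 0.17), and its unadjusted p was not under 0.05. Its sign was negative in all 16 alternative settings, at -0.43 to -0.25, but these reuse the same libraries. Tdrd9, a tudor-domain helicase that works with MIWI2, had 78, 37 and 93 expected counts in the libraries labelled KO, against 58, 22 and 137 in WT. The groups overlapped, with the lowest and the highest value both in WT, and the log2 fold change was 0.07 (SE 0.57, edgeR adjusted p = 0.989). It was 0.69 with WT replicate 3 left out and -0.30 with WT replicate 2 left out.

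The helicase genes and Mael varied more between libraries than between the groups. Ddx4 had 34.5, 22.6 and 19.1 TPM in the libraries labelled KO, against 21.2, 19.5 and 39.1 TPM in WT. The high libraries, 1 of each group, were the library labelled KO replicate 1 and WT replicate 3. The log2 fold change was 0.03 (SE 0.29, edgeR adjusted p = 0.990). It was 0.35 with WT replicate 3 left out and -0.22 with the library labelled KO replicate 1 left out. Mov10l1 encodes the helicase that feeds precursor transcripts into piRNA processing. It had 4.37, 1.04 and 1.17 TPM in the libraries labelled KO, against 4.61, 2.11 and 2.93 TPM in WT. In expected counts, which do not use transcript length, it had 146, 56 and 80 in the libraries labelled KO, against 112, 64 and 116 in WT, and the log2 fold change was 0.04 (SE 0.43, edgeR adjusted p = 0.990), with -0.43 to 0.25 when 1 library was left out. On log2(TPM + 1) the same gene had -0.51 (SE 0.44, adjusted p = 0.842, limma). Mael encodes an HMG-box protein that silences LINE-1 elements, and loss of it alters the survival of fetal oocytes in mice. It had 8.08, 6.61 and 5.51 TPM in the libraries labelled KO, against 7.77, 2.01 and 17.1 TPM in WT. All 3 libraries labelled KO lay inside the WT range, and WT replicate 3 was 7.28 times WT replicate 2 in CPM. The log2 fold change was -0.27 (SE 0.62, edgeR adjusted p = 0.938) and 0.51 (SE 0.48, adjusted p = 0.775) without WT replicate 3.

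Of the mitochondrial membrane genes, Asz1 was first and Pld6 next to last in the order of levels. Asz1 had 551, 501 and 563 TPM in the libraries labelled KO, against 476, 538 and 458 TPM in WT. The groups overlapped, since WT replicate 2 lay above the library labelled KO replicate 2, and the log2 fold change was 0.21 (SE 0.16, edgeR adjusted p = 0.807). Its highest library was 1.23 times its lowest, the narrowest range of the 10 genes in TPM. Pld6 encodes the mitochondrial endonuclease that cuts piRNA precursors, the mouse Zucchini. It had 16, 19 and 16 expected counts in the libraries labelled KO, against 9, 8 and 7 in WT. Every library labelled KO lay above every WT library in CPM, as for 6.48% of all genes tested. The means were 0.78 ± 0.26 CPM in the libraries labelled KO and 0.34 ± 0.09 CPM in WT (SD, n = 3 each). The log2 fold change was 1.17 (SE 0.64, unadjusted p = 0.107, adjusted p = 0.767, edgeR). At such counts sampling alone is a large part of the spread.

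WT replicate 3, the library with the macrophage and leukocyte RNA, had the highest or the lowest CPM for 7 of the 9 tested members. The same held for 57.0% of the 13680 genes tested and for 6 of the 18 tested genes of the other pathway list. Among the members it had the highest CPM for Mael, Piwil2, Tdrd9 and Ddx4, and the lowest for Asz1, Piwil1 and Pld6. In CPM it stood at 5.30 times the mean of the other WT libraries for Piwil2, 3.18 times for Mael, 2.62 times for Tdrd9 and 1.73 times for Ddx4. For Tdrd1 and Mov10l1 the ratios were 0.907 and 0.998. The 10 oocyte markers, mostly Dppa3 and Oosp1, summed to 28675 to 29838 TPM in the libraries labelled KO, against 32592, 32161 and 28336 TPM in WT, with the lowest sum in WT replicate 3. That sum follows Dppa3 and Oosp1, which were lowest there. Zp1, Zp2, Zp3, Bmp15, Nlrp5 and Ooep were instead highest in WT replicate 3, and Gdf9 and Mos lay in between. Zp3 had 1625 TPM there, against 428 and 302 TPM in the other WT libraries and 296 to 307 TPM in the libraries labelled KO. WT replicate 2 was the lowest library for Mael, Piwil2 and Tdrd9. The part of the other cells' RNA in these values was not tested.

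**Figure D3:**
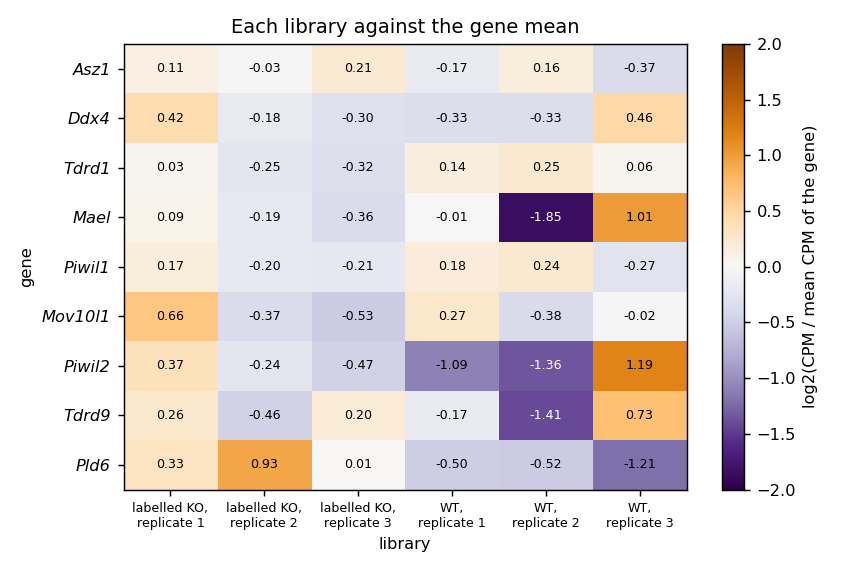
Each tested member (rows) in each library (columns), as the log2 of its CPM over its own mean of the 6 libraries, with the 3 libraries labelled KO on the left. Mael, Piwil2 and Tdrd9 are highest in WT replicate 3 (1.01, 1.19 and 0.73) and lowest in WT replicate 2 (-1.85, -1.36 and -1.41), while Asz1, Tdrd1 and Piwil1 stay within 0.4 of their means.

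The deposited gene lengths show how the counting divided reads among annotated transcripts. RSEM writes, for each gene and library, the mean length of its transcripts weighted by their estimated abundance, and it falls when reads are assigned to short transcripts. For Asz1, Ddx4, Tdrd1, Mael and Tdrd9 the longest value was at most 1.05 times the shortest over the 6 libraries. Tdrd9 was given as 4809 bases in each library although 6 transcripts are annotated. Piwil2, with 3 annotated transcripts, had 4048, 1486 and 1842 bases in the libraries labelled KO, against 1223, 962 and 2600 bases in WT. The library labelled KO replicate 1 had the longest value, and WT replicate 3 the next. Mov10l1, with 5 annotated transcripts, had 2087, 4052 and 3050 bases in the libraries labelled KO, against 1636, 2053 and 2138 bases in WT. The groups overlapped for both genes. With 9 to 74 expected counts of Piwil2 per library, the lengths rest on few reads and were not tested. Piwil4 was given the same 2561 bases in each of the 3 libraries where it had no count.

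**Figure D4:**
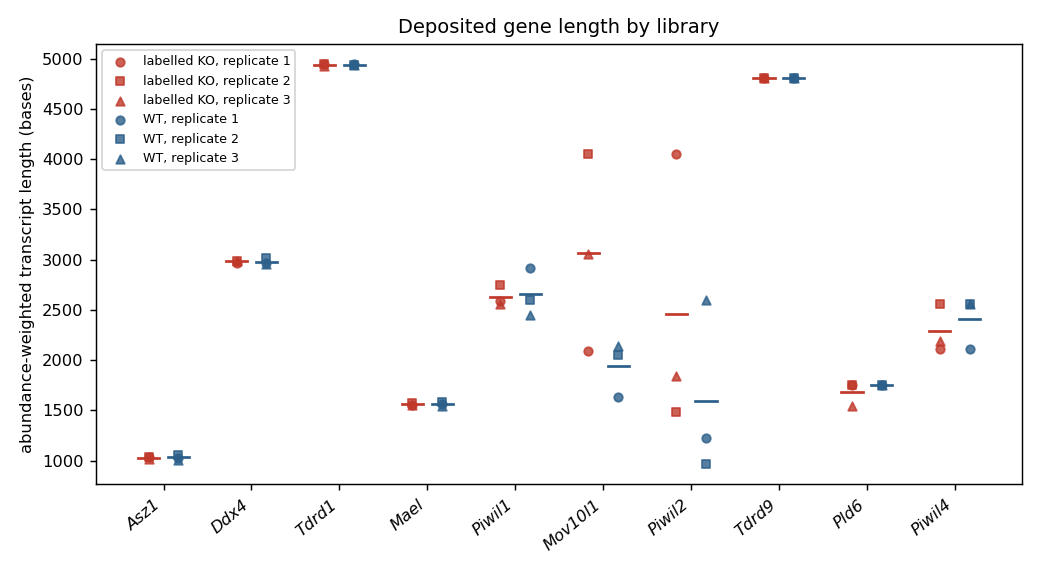
Abundance-weighted transcript length in bases (vertical axis) that the deposited tables give each of the 10 genes, with a point per library, libraries labelled KO in red on the left and WT in blue on the right. The points of Tdrd1, Tdrd9, Ddx4, Mael and Asz1 lie on each other, while Piwil2 runs from 962 to 4048 bases and Mov10l1 from 1636 to 4052 bases.

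Most of the other pathway genes listed were also found in these libraries. A list of 20 other piRNA genes held 15 that were at 1 TPM or more in all 6 libraries, and 8 of the 20 had a higher mean than every member except Asz1. Tdrd12, a tudor-domain helicase, led with 222, 214 and 192 TPM in the libraries labelled KO, against 238, 270 and 159 TPM in WT. Rnf17, a RING and tudor protein that restrains piRNA amplification in the testis, had 188, 192 and 177 TPM in the libraries labelled KO, against 180, 216 and 168 TPM in WT. The PIWI cofactor gene Gtsf1 had 98.6, 87.8 and 68.8 TPM in the libraries labelled KO, against 101, 93.9 and 232 TPM in WT, where the high value was WT replicate 3. Mean levels over the 6 libraries were 77.3 TPM for Stk31 (TDRD8), 74.0 TPM for Tex15, which acts in piRNA-directed DNA methylation, and 35.0 TPM for Gtsf2. They were 30.1 TPM for Tdrd5 and 26.8 TPM for Tdrkh, the tudor protein that tethers PIWI proteins to mitochondria. Kif17 had 19.5 TPM, Morc1 14.6 TPM, and Henmt1, the methyltransferase of piRNA ends, 13.2 TPM. Mybl1, the gene of the testis piRNA activator A-MYB, had 6.99 TPM, the co-chaperone gene Fkbp6 3.74 TPM, Tdrd7 2.39 TPM, and Exd1, whose protein joins TDRD12 in a complex, 2.14 TPM. Spocd1, Pnldc1 and Tdrd6 were below 1 TPM in at least 1 library, and Gpat2 and Btbd18 did not pass the count filter.

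Of the 18 tested genes of this list, 0 were called by edgeR, DESeq2 or limma-voom, and 14 (77.8%) had a negative log2 fold change, beside 54.6% of all genes tested. The median was -0.16, beside -0.04 for all genes tested. Without WT replicate 3, 16 of the 18 (88.9%) were negative in edgeR, beside 48.5% of all genes tested. The median was then -0.20, beside 0.01 for all genes tested. With all 6 libraries, at an unadjusted edgeR p under 0.05, 1 of the 18 was lower and 0 were higher, beside 3.30% of all genes on the lower side. That gene was Tdrd5, a chromatoid body protein needed for spermiogenesis. It had 56.9, 65.4 and 49.9 CPM in the libraries labelled KO, against 86.8, 93.4 and 59.3 CPM in WT. The groups overlapped through WT replicate 3, and the log2 fold change was -0.48 (SE 0.20, edgeR adjusted p = 0.766). Leaving out WT replicate 3 gave -0.65 (SE 0.14, adjusted p = 0.0945). Tdrd6, which builds the chromatoid body, had 29, 8 and 17 expected counts in the libraries labelled KO, against 62, 35 and 30 in WT (log2 fold change -1.22, SE 0.64, adjusted p = 0.767, edgeR). Fkbp6 was the only 1 of the 18 tested genes whose groups did not overlap in CPM, beside 5.96% of all genes tested on the lower side. It had 2.15 to 3.29 CPM in the libraries labelled KO and 3.42 to 5.11 CPM in WT (log2 fold change -0.59, SE 0.37, adjusted p = 0.788, edgeR).

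**Figure D5:**
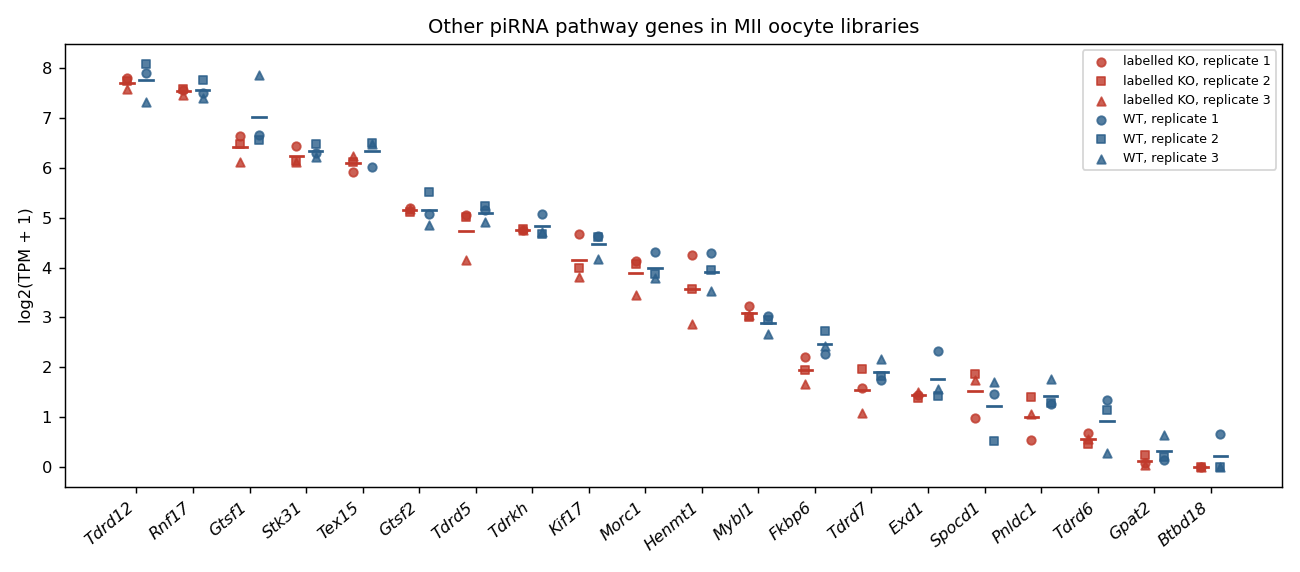
Level of the 20 other piRNA pathway genes, as log2(TPM + 1) on the vertical axis, with a point per library and a bar at the mean of the 3 libraries labelled KO (red, left) and of the 3 WT libraries (blue, right). Tdrd12, Rnf17 and Gtsf1 lie highest, Gpat2 and Btbd18 lie near 0, and the groups overlap for most genes.

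The genes whose levels followed Asz1 most closely over the 6 libraries, by Pearson correlation of log2(CPM + 1), were C2cd5 (r = 0.998), Wtap (0.997) and Ddb2 (0.995). Over the 5 libraries without WT replicate 3 they were C2cd5 (0.998), Mphosph6 (0.997) and Hibadh (0.996). For Ddx4 they were Samm50 (0.996), Dynlt1a (0.990) and Cables2 (0.984) over 6 libraries, and Zyx (0.998), Dynlt1a (0.996) and Samm50 (0.993) without WT replicate 3. Zyx had 1.45 CPM in the library labelled KO replicate 1 and 0.19 to 0.45 CPM in the others of these 5, values that rest on few reads. In WT replicate 3, which was left out, Zyx had 27.9 CPM. Samm50, an outer mitochondrial membrane assembly gene, had 12.1, 5.54 and 4.79 CPM in the libraries labelled KO, against 4.51, 5.11 and 13.0 CPM in WT. That is the same pair of high libraries as for Ddx4. These are the highest of 13680 correlations over few libraries, all values of a library share its depth and scaling, and they are given as a description.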

How the data were processed

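Messenger RNA of 6 MII oocyte libraries was analysed. Per the file headers, the deposited tables hold RSEM expected counts, TPM, FPKM and transcript lengths (in bases, abundance-weighted) per gene. The expected counts deposited by the authors are not normalized. The TPM and FPKM values were scaled by the authors to length and library, per the file headers. Trim Galore 0.4.5, STAR 2.6.1c, RSEM 1.3.1, DESeq2 1.42.1 and mm10/GRCm38 are named in the submitters' processing notes, without roles. The annotation release and the strand setting are not given in the sources used here. Overlapping genes may therefore share reads: Piwil2, Piwil4, Tdrd9 and Mov10l1 each overlap at least 1 annotated gene in RefSeq. The labels' library protocol was written for blastocysts.

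Expected counts were rounded. The test was edgeR 4.0.16 (R 4.3.3; filterByExpr, TMM, quasi-likelihood F test, Benjamini-Hochberg adjustment over all genes, threshold 0.05), with genotype as the only term. A standard error is the log2 fold change divided by the root of F. Alternatives used limma 3.58.1, DESeq2 1.42.0, other filters and scalings, TPM with a pseudocount of 1 or 0.1, and each library left out. FPKM entered 1 alternative. The test was tested on simulated data. Symbols matched 55144 of 55471 IDs. Deviations from the group mean correlated at 0.098, -0.108 and 0.002 between same-numbered libraries, and at -0.126 to 0.133 between the others. WT replicates 1 and 2 gave nearly the same values (0.098 and 0.105 with the library labelled KO replicate 1), since WT replicate 3 stands apart. The check therefore could not decide whether the numbers pair the libraries, and they were not used as pairs.

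The members and lists were chosen with earlier results of these data known. The text names the 10 members, Isca2, the listed pathway genes at 1 TPM or more in all libraries with the 2 of smallest p, the leading markers of each list, and the 3 genes most like each of the top 2 members. Fkbp6 for its separated groups, the pathway genes below 1 TPM, the markers named beyond the leading ones and the promoter motifs were chosen later.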

Additional observations from a re-analysis of the deposited data

How the results depend on the processing

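None of the 9 tested members and none of the 18 tested other pathway genes was called under any of the 16 alternatives. The number of all genes called was 2, and it was 101 with DESeq2, 8 with limma-voom and library weights, 12 with log2(TPM + 1) and 13 with log2(TPM + 0.1). Leaving out 1 library gave 1 to 92, with 92 without WT replicate 3 and 1 without KO replicate 1. The replicate block gave 2. Asz1, Pld6, Piwil1 and Tdrd1 kept their direction under every alternative that gave a value. The others changed sign in places, at the following log2 fold changes. With library totals Tdrd9 had -0.039, Mov10l1 -0.023 and Ddx4 -0.05. With limma-voom Piwil2 had 0.10 and Mov10l1 -0.057, and with library weights Piwil2 had 0.82, Mael 0.16 and Mov10l1 -0.22. With log2(TPM + 1) Mov10l1 had -0.51 and Ddx4 -0.04, and with log2(TPM + 0.1) Mael had 0.037, Mov10l1 -0.76 and Ddx4 -0.041. With the replicate block, though it is not known whether the numbers pair the libraries, Piwil2 had 0.32, Mael 0.11 and Mov10l1 -0.036. Leaving out 1 library gave -0.22 to 0.35 for Ddx4, -0.72 to 0.51 for Mael, -0.43 to 0.25 for Mov10l1, -0.52 to 1.14 for Piwil2 and -0.30 to 0.69 for Tdrd9. The cause was not tested. The number of members at 1 TPM or more was 6, and 5 at 2 TPM or on FPKM. The pairs in the same order in every library numbered 5, and 4 without WT replicate 3. Depth limits Piwil4, Pld6, Piwil2 and Tdrd9, with 0 to 137 expected counts per library.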
